A study of Drosophila melanogaster with 4 samples.

Results

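The library titled RpL12-Myc was compared with the library of the driver alone, sd::Gal4/+ (the driver control), over every gene of the deposited counts. RPL12 is a protein of the large ribosomal subunit, and the study asked whether it also acts on transcription together with Corto, a chromatin factor of the Enhancer of Trithorax and Polycomb family. Both libraries are among the 4 of the series, which has 1 library per genotype, so no value below has a replicate. Of 14086 named genes, 7369 had at least 100 reads in one of the 2 libraries and were compared.

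The assay carries sd::Gal4 and UAS::RpL12-Myc, in which Gal4, a yeast transcription factor expressed under the control of scalloped, activates a transgene for RpL12 with a Myc tag. The control carries 1 copy of the same driver and no UAS transgene. The other libraries were FH-cortoCD (sd::Gal4>UAS::FH-cortoCD, the tagged chromodomain of Corto) and w1118, which has neither driver nor transgene. Each library was made from a pool of 300 wing discs, 1 from each of as many female larvae of the last stage, collected as 6 batches of 50, so that larvae are not replicates. The titles and the genotype fields of the record disagree, each assay having the transgene of the other in its genotype field. Titles are followed here, and the assay is called the library labelled RpL12-Myc, or RpL12-Myc for short. The study's own gene tables run with the titles, which does not settle which field of the record is wrong.

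The wing imaginal disc is the epithelial sac of the larva from which the adult wing and notum form, with muscle precursors and tracheal cells attached to it. Ribosomal protein genes are among its most strongly transcribed genes, and their products are needed in equal amounts in the ribosome. Outside the ribosome, some ribosomal proteins have been found on chromosomes at sites of transcription.

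Values are summed reads of both ends of each pair, levels in RPM (reads relative to the TMM-scaled size of the library), or log2 ratios of scaled reads. A gene is represented by its most abundant entry, since the files count stretches of exons and not whole genes. A gene is said to rise or fall when its ratio to sd::Gal4/+ was at least 2-fold, that is 1 on the log2 scale. The intervals given are 95% Clopper-Pearson intervals of the ratio from the read pairs, counted as the summed reads divided by 2. They cover counting error only, not the spread between pools of discs, and no test between genotypes was possible with 1 library a side.

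RpL12-Myc held 44736060 counts and sd::Gal4/+ 35219666, and the other libraries 43698298 and 26833482. The 8 markers of the wing disc were well covered, from 2992 reads (dpp) to 9896 reads (sd) in RpL12-Myc, and none of them was called. Markers of other tissues differed between the libraries. The 14 midgut markers summed to 221 RPM in RpL12-Myc, 32.9 in FH-cortoCD, 0.338 in the driver control and 0.857 in w1118, and 10 of the 14 were at 0 in sd::Gal4/+. The 7 fat body markers summed to 949 RPM in RpL12-Myc, 662 in FH-cortoCD, 1383 in the driver control and 60.8 in w1118. The control libraries thus stood apart from each other in fat body genes, and the counts of genes were also taken against w1118. In pooled tissue, fewer cells of a type and less RNA per cell cannot be told apart.

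RpL12, the gene named in the title, was not called at its most abundant entry. RpL12 (FBgn0034968) had 24106 reads in RpL12-Myc and 17429 in sd::Gal4/+ at its most abundant entry (dm3, chromosome 2R, 19948199 to 19948516), a log2 ratio of 0.16 with an interval from 0.12 to 0.20. The library labelled FH-cortoCD stood at 0.49. The other control, w1118, had 9993 reads at this entry and stood at -0.46. Relative to w1118, the ratio of RpL12-Myc was 0.62. The value for RpL12 thus depended on the control used, which the interval does not cover, and it stayed below 1 against either control. The entries at the 5′ end of RpL12 had 7369 against 2652 and 7359 against 2676 reads, ratios of 1.17 and 1.15, whereas both 3′ entries stood at 0.01. In the library labelled FH-cortoCD these 5′ entries stood at 1.48 and 1.46, so the rise does not set the assays apart. corto had 7836 reads against 7766 at its most abundant entry, a ratio of -0.29 (interval from -0.36 to -0.23). Transgene and endogenous transcripts cannot be separated in these counts. The gene w, whose w1118 allele lacks part of the gene and whose mini-white form marks many transgenes, had 24501 reads in RpL12-Myc, 18794 in FH-cortoCD, 7981 in the driver control and 6 in w1118. It was thus raised by 1.31 on the log2 scale in RpL12-Myc over the driver alone, and this marker does not say which transgene a library carries.

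Across all genes, 154 were higher and 302 lower in RpL12-Myc than in sd::Gal4/+. These are 2.09% and 4.1% of the 7369 genes, or 6.19% either way. The median ratio was 0.04, and 5% of genes lay below -0.89 and 5% above 0.70. Between the control libraries, 12 genes were higher and 70 lower in w1118 than in sd::Gal4/+, or 0.167% and 0.972% of 7200 genes, and 1.14% either way. Most changes were moderate, since 95 of the 154 rises and 248 of the 302 falls were below 2 on the log2 scale. At the far ends, 32 genes rose and 26 fell by at least 4.

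**Figure D1:**
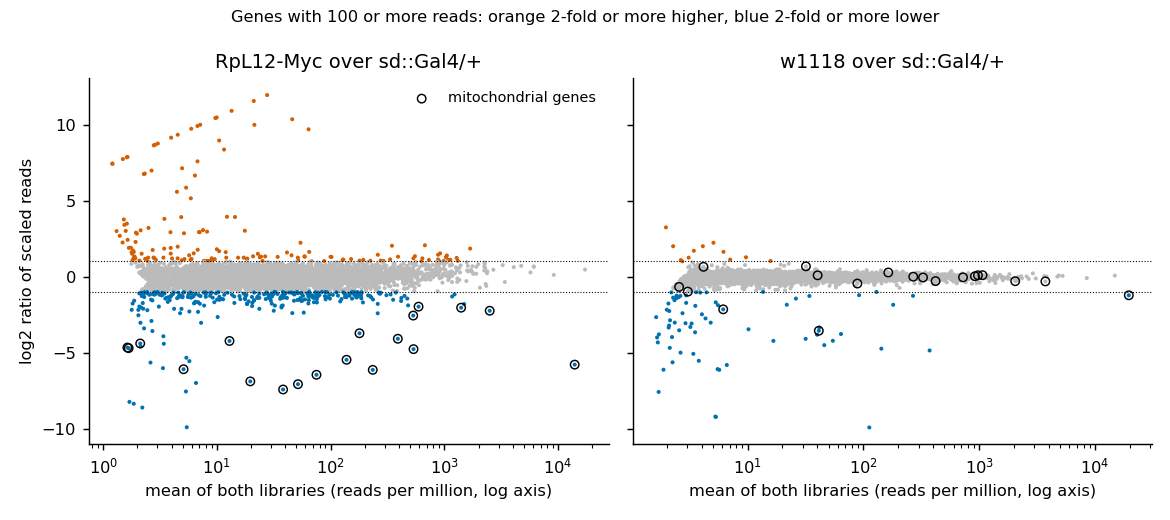
Each point is a gene with at least 100 reads in one of the libraries compared, placed by the mean of both libraries (RPM, log axis) and its log2 ratio to sd::Gal4/+, for RpL12-Myc (left) and w1118 (right). Orange points are at least 2-fold higher, blue points at least 2-fold lower, and black circles mark mitochondrial genes, all 19 of which are lower in the left panel. Ratios of genes with no reads in one library depend on the pseudocount of 0.5 reads.

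With w1118 as the control, 129 of the 154 genes were again higher in RpL12-Myc and 0 were lower. Of the 302 genes that fell, 216 were also lower than in w1118 and 4 were higher. The genes that rose had a median ratio of 1.52 in RpL12-Myc and 1.75 in FH-cortoCD, and the genes that fell had medians of -1.33 and -1.14. Both assays share the control library, so these pairs of values are not independent. The median of the same genes in w1118 was 0.08 for those that rose and -0.08 for those that fell. The calls in 8 genes rest on shared reads, because tal-1A, tal-2A, tal-3A and tal-AA lie on 1 transcript, and gdl with gdl-ORF39 and CG42362 with CG42363 had identical counts.

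The widest gaps were in genes that were nearly silent in the controls. There were 27 genes with at most 3 reads in sd::Gal4/+ and at least 100 in RpL12-Myc, and all 27 had at most 5 reads in w1118. Of these, 7 belong to the list of midgut genes, in which trypsins and the Jonah (Jon) serine proteases digest food. Jon65Aiii (chromosome 3L, 6043874 to 6044800) had 4035 reads in RpL12-Myc, 585 in FH-cortoCD, 2 in the driver control and 0 in w1118. The log2 ratio of Jon65Aiii was 10.35, with an interval from 8.19 to 15.98. deltaTry, a trypsin gene of chromosome 2R (7242838 to 7243633), had 1855 reads in RpL12-Myc, 255 in FH-cortoCD, 0 in the driver control and 4 in w1118. With a floor of 3 reads per library it was 499.8-fold higher than in the driver alone, a value set by that floor.

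Other genes of this kind followed the same order of libraries. yip7, another Jonah-like protease gene, had 1014, 282, 2 and 3 reads in RpL12-Myc, FH-cortoCD, sd::Gal4/+ and w1118, and its ratio was 8.36 with an interval from 6.19 to 13.98. CG30031, of the trypsin cluster of deltaTry, had 1877, 243, 1 and 4 reads. CG10912 had 2431, 56, 0 and 0 reads and CG7465 had 1184, 19, 0 and 0 reads. With the same floor of 3 reads they were 655-fold and 319-fold higher in RpL12-Myc. Both are named by number only, and their roles are not given here. The first reads covered 100% of the bases of Jon65Aiii and CG10912 in RpL12-Myc, so the signal was not a pile of reads at 1 place. In 26 of the 27 genes the level in FH-cortoCD lay below that in RpL12-Myc, the exception being CG14332 with 394 reads against 142. The genes were picked by their reads in RpL12-Myc, which favours this order of libraries, so the count is a description only. The trypsin genes of this cluster are near copies, and reads that matched more than once had been removed by the authors, so the split of reads among them is uncertain.

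**Figure D2:**
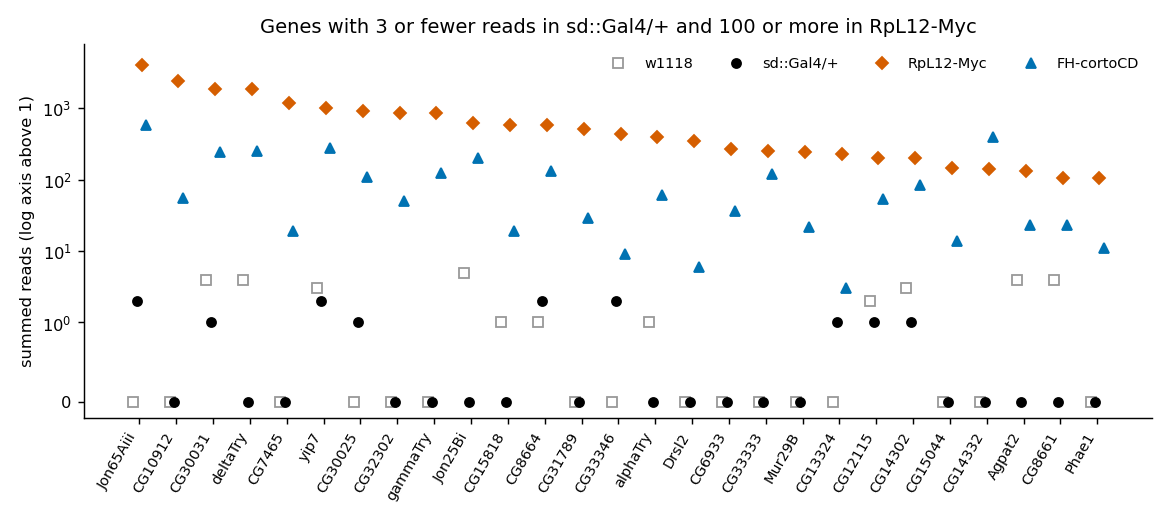
Summed reads (log axis above 1, with 0 at the foot) in the 4 libraries for the 27 genes with at most 3 reads in sd::Gal4/+ and at least 100 in RpL12-Myc. RpL12-Myc holds from 106 (CG8661, Phae1) to 4035 reads (Jon65Aiii), FH-cortoCD from 3 to 585, and w1118 at most 5.

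Of 48 midgut genes matched to the files, 10 had at least 100 reads in one of the libraries, and 9 of these rose and 0 fell. They passed that minimum through RpL12-Myc, except LManII, so nothing is read from the count beside the 2.09% of all genes higher. The other 38 stayed below 100 reads in both libraries, and 28 of them had reads in RpL12-Myc, such as betaTry with 77 reads against 0, Amy-d with 21 against 1 and Amy-p with 17 against 2. In RpL12-Myc 10 were at 0, among them Jon99Ci, Jon44E, thetaTry, zetaTry, Ser6 and the maltases Mal-A1, Mal-A2, Mal-A3 and Mal-A7. In sd::Gal4/+ 32 of the 48 were at 0. The summed level of the list was 351 RPM in RpL12-Myc, 71.4 in FH-cortoCD, 30.3 in the driver control and 24.97 in w1118. LManII, a lysosomal mannosidase gene with 989, 804, 919 and 564 reads in the same order, made up most of the level in the controls. Whether midgut tissue was present in the pool was not tested.

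A few genes had reads mainly in the driver control. At most 3 reads in RpL12-Myc against at least 100 in sd::Gal4/+ were found in 5 genes, all with at most 4 reads in w1118. CG16727 had 0 reads in RpL12-Myc, 15 in FH-cortoCD, 386 in the driver control and 4 in w1118, at least 159-fold lower than in sd::Gal4/+. Muc11A, a mucin gene of the X chromosome, had 2, 144, 378 and 0 reads in the same order, a ratio of -7.55 with an interval from -13.18 to -5.37. The remaining genes, named after their values were seen, were kumpel, CG10514 and CG17752, with 121, 132 and 157 reads in sd::Gal4/+ and 0 in RpL12-Myc. Among the largest falls of genes with at least 10 reads in each library, Alp8, an alkaline phosphatase gene, had 10 reads against 399, Fst (Frost) had 11 against 374 and CG9259 had 13 against 232. w1118 had 4, 0 and 14 reads of these genes, so the falls of Alp8, Fst and Muc11A were not seen with w1118 as the control. Their ratios to w1118 were 0.57, 3.87 and 1.67, from 10 against 4, 11 against 0 and 2 against 0 reads. These reads are below the minimum of 100, so the ratios are not read as rises. CG9259 stood at -0.75 against w1118, from 13 against 14 reads, so its large fall was not seen there either. For these genes the 2 controls stood apart, and FH-cortoCD had 11, 12 and 144 reads of Alp8, Fst and Muc11A.

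Mitochondrial transcripts were well covered in both controls and far lower in RpL12-Myc. The mitochondrial genome encodes 13 proteins of the respiratory chain and the ATP synthase, together with the rRNAs and tRNAs of its own ribosome, and is transcribed apart from the nucleus. All 19 mitochondrial genes compared fell, against 4.1% of all genes. They took up 0.24% of the counts in RpL12-Myc, 0.333% in FH-cortoCD, 3.93% in the driver control and 2.29% in w1118. The ratios of the messengers ran from -1.97 to -7.42, with a median of -4.23, while their median in w1118 was -0.04.

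The messengers did not fall evenly. The 4 with the smallest falls were mt:Cyt-b, mt:CoIII, mt:CoI and mt:CoII, which encode cytochrome b and the subunits of cytochrome oxidase. mt:CoI had 38379 reads in RpL12-Myc, 45828 in FH-cortoCD, 146749 in the driver control and 93096 in w1118, and its ratio was -2.24 (interval from -2.27 to -2.22). mt:Cyt-b had 10582, 14497, 33560 and 28162 reads and a ratio of -1.97. The remaining 9, subunits of NADH dehydrogenase and of ATP synthase, all lay below -3. mt:ND2 had 74 reads in RpL12-Myc against 5273, a ratio of -6.45, and 5020 reads in w1118. mt:ND1 had 268 against 9585 reads (-5.46), mt:ATPase6 1667 against 36678 (-4.77) and mt:ATPase8 290 against 16433 (-6.13). In every one of the 13 the level in RpL12-Myc was below that in FH-cortoCD, and both assays were below both controls.

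**Figure D3:**
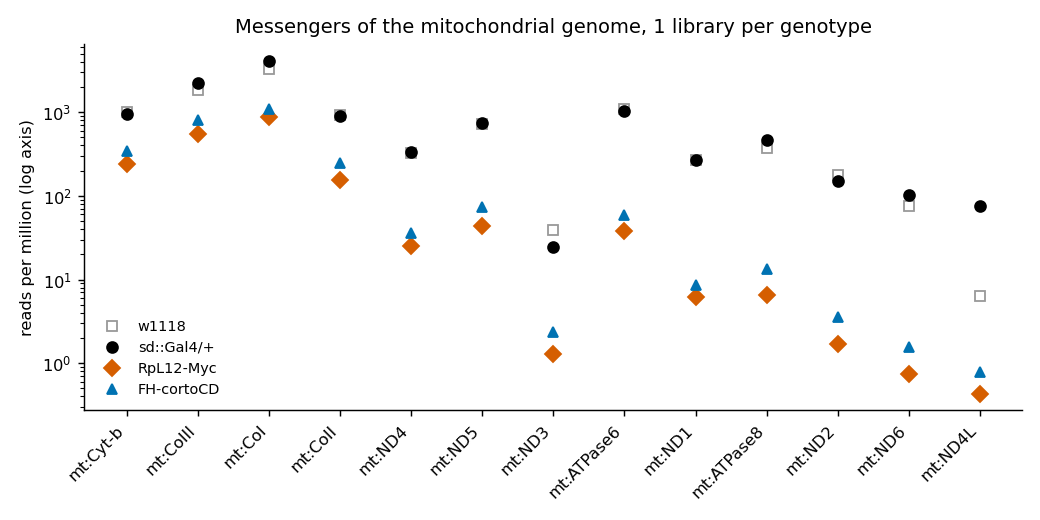
Levels of the 13 mitochondrial messengers in the 4 libraries (RPM, log axis), ordered from the smallest to the largest fall in RpL12-Myc. RpL12-Myc is the lowest library for each messenger, from a ratio of -1.97 (mt:Cyt-b) to -7.42 (mt:ND4L) against sd::Gal4/+.

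The control libraries differed in 1 messenger and in the rRNA. mt:ND4L had 19 reads in RpL12-Myc, 33 in FH-cortoCD, 2698 in the driver control and 180 in w1118, a ratio of -7.42 in RpL12-Myc and of -3.56 in w1118. mt:ND6 had 33 reads against 3640 and 2095 in the controls, a ratio of -7.07. The large ribosomal RNA mt:lrRNA was the most abundant of these transcripts, with 21890 reads in RpL12-Myc, 32368 in FH-cortoCD, 975604 in the driver control and 328579 in w1118. Its ratio was -5.79, and w1118 itself stood at -1.23. Of 24 mitochondrial tRNA and rRNA genes, 6 had enough reads and all 6 were lower, among them mt:tRNA:Leu-TAG with 14 reads against 1386 (-6.89), and 13 of the 24 had no reads in RpL12-Myc. Between the controls, 2 of 6 such genes were lower in w1118, with a median of -0.83. The libraries were selected for poly(A) tails, so the values of these tRNAs and rRNAs describe what passed that selection. Protein genes of the respiratory chain that lie in the nucleus went the other way. Of 31, 3 rose and 0 fell, beside 2.09% of all genes higher, with a median ratio of 0.52 against 0.04 for all genes, and UQCR-Q, a subunit of complex III, had 3937 reads against 678 (2.23, interval from 2.06 to 2.40). blw, the alpha subunit of ATP synthase and the most abundant of the list, had 87603 reads against 43350 (0.71).

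The ribosomal protein genes moved upwards as a group. Of 85 cytosolic ribosomal protein genes with enough reads, 15 rose and 1 fell, or 17.6% higher against 2.09% of all genes. Their median ratio was 0.65 in RpL12-Myc, 0.84 in FH-cortoCD and -0.14 in w1118, beside 0.04 for all genes in RpL12-Myc. The study had chosen ribosomal proteins as a theme on these same libraries, so the count is not independent evidence. The large subunit had 9 rises among 51 genes and the small subunit 6 among 34, with medians of 0.62 and 0.70. RpL31 had 47798 reads against 9249 (2.06, interval from 2.02 to 2.11) and RpL27 115859 against 26028 (1.85). In the small subunit, RpS23 had 56586 against 16835 reads (1.44). The most abundant members, RpL4 and RpS3, stood at 0.63 and 0.85. RpL38 was the only member that fell, with 9077 reads in RpL12-Myc, 14046 in FH-cortoCD, 22236 in the driver control and 17845 in w1118, a ratio of -1.60 (interval from -1.65 to -1.55).

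Genes for making and running ribosomes had smaller median ratios than the ribosomal protein genes. None of 32 nucleolar and ribosome assembly genes was called, with a median of 0.08, and none of 19 tRNA synthetase genes, with a median of 0.22. Among 27 translation factor genes 0 rose and 1 fell, namely eIF4B (3803 reads against 7324, -1.25). eEF1alpha1, the elongation factor that brings tRNA to the ribosome, had 878722 reads against 514455, a ratio of 0.47. Of 75 mitochondrial ribosomal protein genes, 1 rose (mRpL33, 1.68) and 2 fell (mRpS21, -1.33, and mRpS5, -1.72), with a median of 0.25. Proteasome genes had a median of 0.38 and glycolysis genes of 0.45, and 0 of 30 and 0 of 12 were called. Beside 2.09% of all genes higher and 4.1% lower, nothing particular to these lists is read from the counts.

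**Figure D4:**
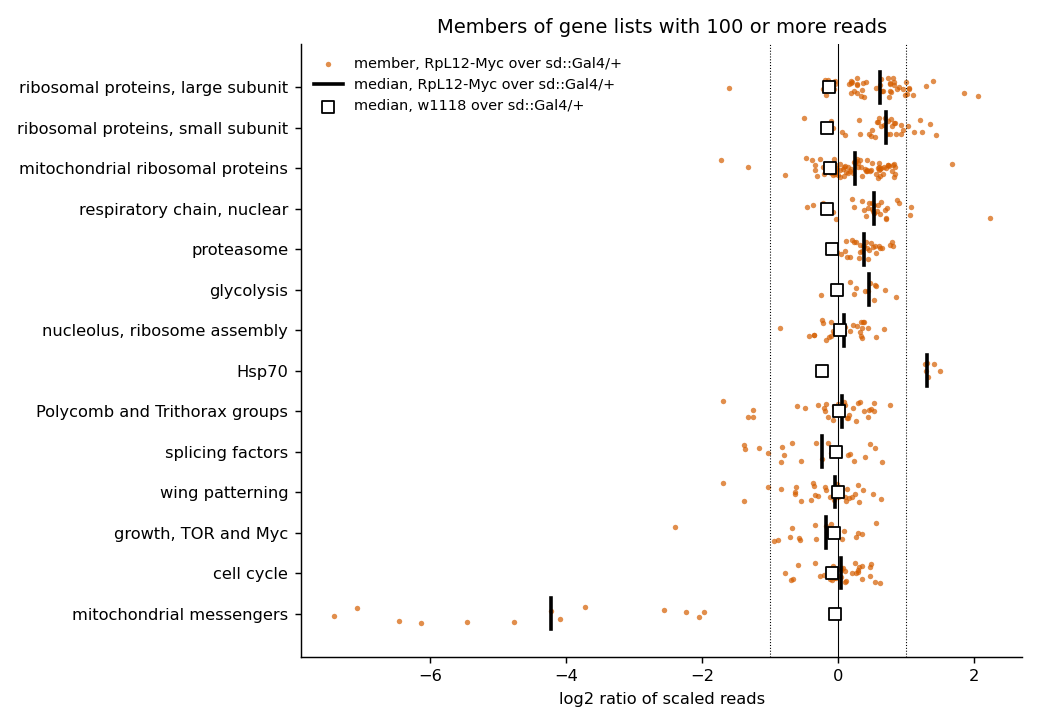
Log2 ratios of RpL12-Myc to sd::Gal4/+ for the members of 14 gene lists that had at least 100 reads in one of these libraries (orange points), with the median of each list (black bar) and its median in w1118 (open square). The ribosomal protein lists are centred at 0.62 and 0.70 and the mitochondrial messengers at -4.23, while the w1118 medians lie between -0.23 (Hsp70) and 0.02.

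All 6 genes of Hsp70, the chaperone that is induced by heat, rose, by between 1.28 (Hsp70Bb) and 1.50 (Hsp70Bbb). Of all genes 2.09% were higher. The Hsp70 genes are near copies, so the split of reads among them is uncertain and they do not count as 6 separate rises. The study had singled out hsp70 on these same libraries, so the count is not independent evidence. Hsp70Ba had 2890 reads in RpL12-Myc, 4096 in FH-cortoCD, 882 in the driver control and 552 in w1118. Of the 8 small heat shock protein genes, l(2)efl rose, with 122 reads against 18 (2.42, interval from 1.44 to 3.65, with w1118 at 1.40), and Hsp23, the most abundant, stood at 0.22. None of 13 other chaperone genes with enough reads was called, and their median was 0.27.

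Short structural RNAs of RNA-protein machines were among the largest rises. RNaseMRP:RNA, the RNA of an enzyme that trims rRNA precursors, had 505 reads in RpL12-Myc, 641 in FH-cortoCD, 11 in the driver control and 12 in w1118, a ratio of 5.15 with an interval from 4.11 to 6.98. The copies 7SLRNA:CR32864 and 7SLRNA:CR42652 of the RNA of the signal recognition particle had 594 against 57 and 397 against 44 reads, ratios of 3.06 and 2.85. RNaseP:RNA, of the enzyme that trims tRNA precursors, had 364 against 111 reads (1.40). These 4 had fewer reads in w1118 than in RpL12-Myc as well, from 12 to 78. The pseudogenes 28SrRNA-Psi:CR40596 and 28SrRNA-Psi:CR41609 of unplaced sequence had 1377 against 137 and 639 against 66 reads. Such RNAs mostly lack a poly(A) tail, which the libraries were selected for, and 20 of the 34 genes of the list had no reads in RpL12-Myc, so these values describe what passed that selection.

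Some genes of the larval cuticle also lay among the largest rises. Lcp1, a larval cuticle protein gene, had 1190 reads in RpL12-Myc, 789 in FH-cortoCD, 63 in the driver control and 234 in w1118, and Lcp3 had 401, 183, 21 and 73. The ratios of Lcp1 and Lcp3 were both 3.92, and those of Lcp2 and Lcp4 were 2.93 and 2.92. w1118 also stood above sd::Gal4/+ in these 4 genes, by up to 2.23, so that part of the rise was seen between the controls. With w1118 as the control the ratio of Lcp4 was 0.92 and that of CG42500, a gene of unstated role, was also 0.92, so neither would be called. Of 126 cuticle genes, 107 had fewer than 100 reads in both libraries. Of the other 19, 6 rose and 0 fell, with a median of 0.49, and 6 had a ratio below 0. Lcp1, Lcp2, Lcp3 and Lcp4 passed the minimum only through RpL12-Myc. Nothing is therefore read from that count beside the 2.09% of all genes higher. Obp56d, an odorant-binding protein gene, had 284 against 16 reads (3.80), CG42500 had 304 against 32 (2.92, with 102 in w1118) and CG13323 had 1012 against 53 (3.94). CG13323 had only 16 reads in FH-cortoCD and 2 in w1118.

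Muscle genes showed rises, mainly of low-level members. Of 13 with enough reads 5 rose and 1 fell, beside 2.09% and 4.1% of all genes. In the list, 11 of the 24 had fewer than 100 reads in both libraries. Of the rises, Mlc1, TpnC73F and bt passed the minimum only through RpL12-Myc, so nothing is read from that count. w1118 also stood above sd::Gal4/+ in TpnC73F (1.07) and bt (1.42). Mlc1, a myosin light chain gene, had 108 reads against 18 (2.24, interval from 1.25 to 3.48), and Mhc, the muscle myosin heavy chain, had 461 against 109 (1.77). The best covered rise was sls, named after its values were seen. It had 4301 reads against 1125 (1.63, interval from 1.49 to 1.77), with w1118 at -0.28. The fall was in Tm1, a tropomyosin gene also used outside muscle, with 8166 against 15374 reads (-1.22), and Argk1, arginine kinase and the most abundant of the list, stood at 0.62. In 12 genes of adult muscle precursors 0 rose and 1 fell, how, an RNA-binding protein gene, at -1.28. Of 10 blood cell genes 0 rose and 2 fell, with a median of 0.39 and 6 ratios above 0. crq, a scavenger receptor, fell to 603 reads from 1670 (-1.78) and NimC2 to 144 from 304 (-1.38). w1118 stood at -0.47 and -3.02 in these genes. Of 11 fat body genes 0 rose and 2 fell, with a median of -0.07. Fbp2 and apolpp fell by 1.50 and 1.40, and w1118 stood lower still in these 2, at -4.50 and -4.09. Nothing particular to either list is read from these counts, beside 4.1% of all genes lower. The part of fat body or muscle tissue in these values was not tested.

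Genes that pattern the wing disc changed little at the level of lists. Of 36 wing patterning genes, 0 rose and 3 fell, with a median of -0.05. The 3 were hth, a homeodomain partner of the Hox proteins, with 3987 reads against 10441 (-1.70), kn, with 430 against 912 (-1.39), and elB, with 2678 against 4425 (-1.03). Among 33 genes of the Polycomb and Trithorax groups, which keep homeotic genes off or on, 0 rose and 4 fell, namely pho (-1.70), vtd (-1.33), Dsp1 (-1.25) and lolal (-1.24). Of all genes 4.1% fell, and nothing particular to these lists is read from the counts. Of the homeotic genes, only Antp, abd-A and Ubx passed 100 reads. Antp had 485 reads in RpL12-Myc, 672 in FH-cortoCD, 1855 in the driver control and 1377 in w1118 at its most abundant entry (-2.24, interval from -2.45 to -2.04), and abd-A had 45 against 122 (-1.74), with 40 in w1118.

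In the signalling lists the calls were few and mostly falls. No gene was called among 15 of the Dpp, 22 of the Notch and 6 of the JAK/STAT pathway, nor among 35 cell cycle genes. In the Hedgehog pathway ci, its transcription factor, fell to 9093 reads from 16547 (-1.17), in the Wingless pathway Wnt4 fell (-1.38), and in the EGFR pathway the adaptor drk fell (-1.20). Of 15 ecdysone response genes 2 fell, the nuclear receptors Hr3 (706 reads against 2122, -1.89) and EcR (2634 against 4286, -1.01). Of 19 growth genes 1 fell, Mnt, whose product opposes Myc, with 646 reads in RpL12-Myc, 882 in FH-cortoCD, 2748 in the driver control and 1878 in w1118 (-2.40). Myc itself stood at -0.32. Of 21 splicing factor genes 0 rose and 4 fell, among them mub (-1.36) and the most abundant, Hrb27C, with 33330 reads against 60452 (-1.17). These counts stand beside 4.1% of all genes lower, and nothing particular to the lists is read from them.

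Several of these falls held at 1 end of the gene only. The files list most genes as several entries, each a stretch of exons shared by a set of transcripts. In 1936 genes the outermost entries with at least 100 reads in RpL12-Myc or sd::Gal4/+ did not overlap, and they are called the 5′ and the 3′ entry. At the 5′ entry the median ratio was 0.16, and at the 3′ entry it was -0.18. The ratio of the 5′ entry exceeded that of the 3′ entry in 1407 of the 1936 genes, with a median difference of 0.37 and quartiles of -0.05 and 0.82. The difference was at least 1 in 350 genes and at most -1 in 53. For w1118 against the same control the median difference was 0.03, with 4 and 3 genes beyond these limits, and for FH-cortoCD it was 0.41. The cause of the difference was not tested.

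In the called genes the ends also differed, but the call was made at the most abundant entry, which was the 3′ entry in 88 of the 122 falling genes below and in 1094 of all 1936. The counts are therefore set in part by the call and are a description only. Of the 302 genes that fell, 122 had such a pair of ends, and the 3′ entry was lower by at least 1 in 116 of them but the 5′ entry in 34. Of the 154 that rose, 24 had a pair of ends, with the 5′ entry higher by at least 1 in 19 and the 3′ entry in 8. Among the 141 falling genes with several entries of at least 100 reads, 29 had all entries lower by at least 1, and 57 had an entry with a ratio above 0. In many of these genes the fall of the most abundant entry was thus not shared by every entry. Entries can belong to different sets of transcripts, so these counts cannot say whether whole transcripts fell.

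The genes below are examples of the pattern and do not measure how common it was. In Antp the 3′ entry of 2286 bases (chromosome 3R, 2721975 to 2724260, minus strand), shared by 8 transcripts, gave the ratio of -2.24, while an entry of 1029 bases shared by 11 transcripts (2735012 to 2736193) had 935 reads against 707, a ratio of 0.10. The 5′ entry of Antp stood at -0.74. Mnt had 848 reads against 753 at its 5′ entry (-0.14) and the fall of 2.40 at its 3′ entry. N, the Notch receptor gene, had 50238 against 20453 reads over 8561 bases of its 5′ side (0.99) and 2603 against 5537 at its 3′ entry (-1.40). Fas3 and Nrg, which encode adhesion proteins of the epithelium, were chosen after their values were seen. They had 5′ ratios of 0.23 and 0.31 and 3′ ratios of -2.28 and -2.16.

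Cam, the calmodulin gene, and Df31, chosen here after their values were seen, had lower ratios at the 3′ entry than at the 5′ entry. Cam had 8960 reads in RpL12-Myc, 8288 in FH-cortoCD, 26840 in the driver control and 17710 in w1118 at its 3′ entry (-1.89), and 266 against 442 at its 5′ entry (-1.04), so both ends fell. An entry of 418 bases between them, shared by 4 transcripts, had 6330 against 7588 reads (-0.57). Df31, a chromatin decondensation factor, had 12966 against 17892 reads at its 5′ entry (-0.77) and 29264 against 82324 at its 3′ entry (-1.80), the most reads among the nuclear genes that fell.

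**Figure D5:**
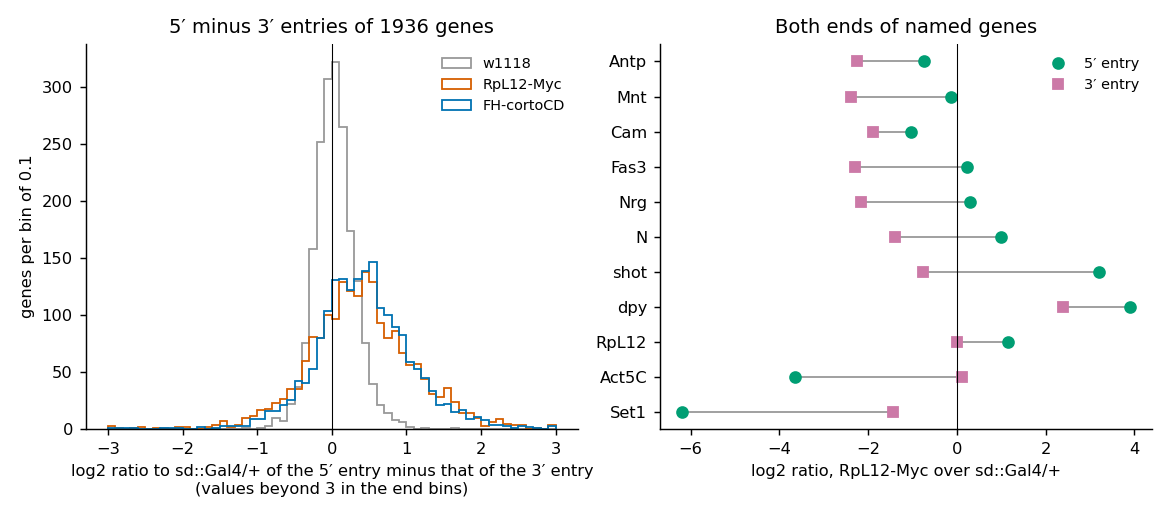
Left, histogram over 1936 genes of the log2 ratio to sd::Gal4/+ at the 5′ entry minus that at the 3′ entry, for w1118, RpL12-Myc and FH-cortoCD, whose medians are 0.03, 0.37 and 0.41. Right, the ratio of RpL12-Myc to sd::Gal4/+ at both ends of 11 genes, in which Antp, Mnt, Fas3, Nrg, N and shot are lower at the 3′ end, and Act5C and Set1 at the 5′ end.

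In some genes the split was reversed or very wide. The 8 genes whose entries lay farthest apart were Set1 (a spread of 5.61 on the log2 scale), Act5C (4.58), shot (4.13), PI31 (4.07), spen (3.25), lola (3.20), Dyb (3.06) and how (3.02). Act5C, the main cytoplasmic actin gene, had 709 reads against 7183 at an entry of 150 bases at its 5′ end (-3.65). The next entry, of 117 bases, had 8303 against 3508 reads (0.94), and the spread lay between this pair. The most abundant entry of Act5C had 418540 against 311914 reads (0.12). Set1, a histone methyltransferase gene, had 2 reads against 147 at its 5′ entry and 2333 against 5119 over the 4949 bases of its main entry (-1.44). shot, which encodes a long linker of actin and microtubules, had 245 against 21 reads at its 5′ entry (3.21) and 1235 against 1696 at its 3′ entry (-0.76).

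Genes with very long transcripts rose more often than others. Of 100 genes with a longest transcript above 10000 bases, 14 rose and 6 fell, with a median ratio of 0.44, against 0.04 for the 666 genes between 5000 and 10000 bases, of which 6 rose and 36 fell. dpy, which encodes a giant protein of the apical matrix, had 24449 reads in RpL12-Myc, 24756 in FH-cortoCD, 4829 in the driver control and 4436 in w1118 over its entry of 20788 bases (2.03, interval from 1.97 to 2.10). The values of further long genes, chosen after they were seen, were 53062 reads against 19565 for uif (1.13), 43774 against 16531 for ft, an atypical cadherin of the Hippo pathway (1.10), and 20108 against 7412 for Msp300, a nuclear anchor protein (1.13). HUWE1, a ubiquitin ligase gene, stood at 1.21 and mgl, the megalin receptor, at 1.44. In the 51 long genes with a pair of ends the median ratio was 0.99 at the 5′ entry and 0.02 at the 3′ entry.

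Short transcripts differed by class. Of 156 genes below 500 bases 14 rose and 15 fell, with a median of 0.10. Of 994 genes between 500 and 1000 bases 71 rose and 37 fell, with a median of 0.14, whereas of 1374 genes between 3000 and 5000 bases 7 rose and 72 fell, with a median of -0.06. In the classes between 500 and 5000 bases the median fell from class to class. The ribosomal protein genes are short, and with a smooth trend on length subtracted their median was 0.51 instead of 0.65.

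Genes of the small chromosome 4 and of heterochromatin were lower as groups. Chromosome 4 is largely packed as heterochromatin although its genes are active. Of its 61 genes with enough reads 55 had a ratio below 0, with a median of -0.75, beside 0.04 for the 7240 genes of the arms X, 2L, 2R, 3L and 3R. 17 of the 61 fell and 3 rose, or 27.9% lower against 4.1% of all genes. Against w1118 in place of sd::Gal4/+ the median of chromosome 4 was -0.77, and between the controls it was 0.06, with 18 genes below 0. The 3 that rose, dati, bt and lncRNA:sphinx, were all low, at 141, 124 and 364 reads in RpL12-Myc, and w1118 also stood above sd::Gal4/+ in dati (1.63) and bt (1.42).

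Named genes of chromosome 4 were spread over their range. pho, the Polycomb group gene named above, had 1568 reads in RpL12-Myc, 1815 in FH-cortoCD, 4113 in the driver control and 3422 in w1118, and Pur-alpha had 389 against 1363 (-2.11), the largest fall of the chromosome. zfh2 and ATPsynbeta, which were abundant, stood at 0.00 and -0.03. The lower ratios of chromosome 4 were found at both ends of its genes, with medians of -1.16 at the 5′ entry and -1.23 at the 3′ entry over 31 genes. In the 49 genes that dm3 places in heterochromatin or leaves unplaced, the median was -0.69, 12 fell and 3 rose, and the median in w1118 was 0.02. vtd, Set1 and eIF4B, named above, are among them. The X chromosome stood at 0.11, and 2L, 2R, 3L and 3R lay between 0.01 and 0.04.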

How the data were processed

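Wing disc RNA was sequenced by the authors as 50 bp pairs after poly(A) selection, in 4 libraries, 1 per genotype. Per the labels and methods, reads were aligned with Bowtie to dm3, reads matching more than once were removed, and overlaps with FlyBase exons were counted. The authors deposited, for each read of a pair, a raw count per entry and the fraction of the library's alignments, of which the counts were used here. Authors' comparisons were not used. The strand of the counting is not given in the sources used here.

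Both reads were summed, and the 30950 entries were named through transcript IDs (29123 entries, 14086 genes, 97.9% of counts; 47 transcripts by the pairing of IDs in the study's gene tables). Reads were scaled by TMM sizes (edgeR 4.0.16 in R 4.3.3), and log2 ratios used a pseudocount of 0.5 reads. Genes were called at an absolute ratio of 1 with at least 100 reads in one library. Because no replicate exists, no p-value is given. The deposited totals run from 26833482 to 44736060, and since each fragment gives 2 reads, intervals were computed on the summed reads divided by 2.

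Named genes were RpL12 and corto, the 12 largest rises and falls with at least 10 reads in both libraries and 200 in one, up to 6 genes with at most 3 reads in one library in each direction, the leading called and the most abundant members of lists, and the 8 widest spreads between entries. Others are said to be chosen after their values were seen. The comparison, the 54 gene lists and these rules were chosen with earlier results of these data known. Alternatives were other scalings (DESeq2 1.42.0 factors, totals, none), read minimums, fold limits, each read alone, other controls, any entry, a binomial test, a pseudocount of 5 and a trend on length. The functions were tested on simulated data.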

Additional observations from a re-analysis of the deposited data

How the results depend on the processing

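The counts of 154 genes higher and 302 lower kept within 1.5 times under total counts, DESeq2 size factors, either read alone, w1118 or the mean of both controls, a pseudocount of 5, a length trend and the binomial test of edgeR. They moved to 374 and 158 without scaling, which shifts the median of all genes from 0.04 to 0.34 and the share of rises among calls from 33.8% to 70.3%, while with w1118 as the control that share was 46.4%. They were 372 and 541 at 20 reads, 64 and 171 at 1000 reads, 1501 and 1370 with no minimum, 59 and 54 at a limit of 2, 774 and 920 at 0.5, and 300 and 585 by any entry. The median of the ribosomal proteins was 0.61 under total counts, 0.96 without scaling, 0.83 against w1118 and 0.51 after the length trend, and that of the mitochondrial messengers -3.92 without scaling and -3.96 from first reads alone. For Hsp70 it was 1.62 without scaling and 1.60 against w1118, for chromosome 4 genes -0.44 without scaling, and the difference between 5′ and 3′ entries was 0.56 at 1000 reads. These last 2 results, and the minimum of 1000 reads for medians, were examined after seeing the data. Alp8, Fst and Muc11A turned to 0.57, 3.87 and 1.67 against w1118. The cause of these shifts was not tested, beyond what the construction of each setting implies. No paired analysis was possible because each genotype has 1 library.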

Other observations

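Outside the lists, lncRNA:CR34335, a noncoding RNA gene of the X chromosome, had 59881 reads in RpL12-Myc, 116759 in FH-cortoCD, 16764 in the driver control and 14769 in w1118, a log2 ratio of 1.53 in RpL12-Myc. Bacc had 3611 against 15511 reads (-2.41) and Galphaq, a G protein subunit gene, 828 against 3452 (-2.37), with 10258 and 2527 reads in w1118. These 3 genes were chosen after their values were seen, and no explanation was examined.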
